A study of Saccharomyces cerevisiae with 160 samples.

Results

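Budding yeast cells (Saccharomyces cerevisiae) that could not finish DNA replication and lacked the checkpoint kinase Rad53 were compared with cells that had completed replication and were held before anaphase by loss of Cdc20. The comparison used 20 of the 160 arrays of the series, chosen by strain and time only: 5 arrays of each of 2 cultures of the strain rad53-1 cdc8 cdc20, taken from 162 to 234 min after release, and 5 arrays of each of 2 cultures of the strain cdc20, taken from 200 to 280 min. All 5716 yeast probe sets of the array were compared. Both strains are MATa and bar1, both carry cdc20::LEU2 with CDC20 supplied from the GALL promoter (Pgall-CDC20::ADE2), and both are listed with CFP-TUB1::URA3. The GALL promoter is shut off in dextrose, so both strains were depleted of Cdc20. The strain rad53-1 cdc8 cdc20 carries in addition cdc8ts, a temperature-sensitive allele, and rad53-1, so the stalled fork and the loss of Rad53 entered together and cannot be told apart in this comparison. A strain with cdc8ts and depleted Cdc20 but wild-type RAD53 (cdc8 cdc20, 1 culture) and a cdc8 strain that is not depleted of Cdc20 (2 cultures) are given as values beside the 2 strains. Values are also given for 2 cultures of the strain cse4, which overexpresses a mutant CSE4 allele from a galactose-driven promoter. The paper describes its arrest as that of the spindle assembly checkpoint. The cells were small G1 daughters collected by elutriation, and rad53-1 cdc8 cdc20 and cdc20 cells were released into dextrose medium. The paper describes release at the restrictive temperature for cdc8 and cdc8 cdc20 cells, and states no temperature for cdc20 cells. Culture temperature may therefore differ between the 2 strains compared as well, and its part was not tested.

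CDC8 encodes thymidylate kinase, so cells with the temperature-sensitive allele run out of dTTP and their forks stall in S phase. Rad53, the budding yeast counterpart of human CHK2, is activated at stalled forks by Mec1 and Mrc1; it protects the forks, restrains mitosis and, through the kinase Dun1, relieves repression of the ribonucleotide reductase genes by Rfx1 (Crt1). Cdc20 activates the anaphase-promoting complex, and without it cells keep their sister chromatids together and their mitotic cyclins stable. In the G1/S program, the factors SBF and MBF activate the genes of budding and DNA synthesis, forkhead and Mcm1 complexes drive the G2/M genes, and Mcm1 with its corepressors sets the M/G1 genes such as CLN3 and the MCM helicase genes.

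Levels are given as log2(intensity + 1), where the intensity is the authors' normalized linear value for a probe set, averaged over the 5 arrays of a culture. The culture is the replicate (n = 2 per strain), and a difference is the mean of the rad53-1 cdc8 cdc20 cultures minus the mean of the cdc20 cultures. Each was tested with limma across all probe sets, with Benjamini-Hochberg adjustment, and was called at an adjusted p of 0.05 or less. Array medians of the 4 cultures ran from 1020 to 1284 intensity units. The 2 rad53-1 cdc8 cdc20 cultures correlated at r = 0.99 across probe sets, as did the 2 cdc20 cultures, and cultures of different strain correlated at 0.91. The number of cultures limits the precision, and the methods name 2 labelling kits without saying which arrays each was used for, so the part of the kit was not tested.

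The arrests differed widely. Of 5716 probe sets, 2641 (46.2%) were called, 1122 (19.6%) higher and 1519 (26.6%) lower in rad53-1 cdc8 cdc20. In 406 of those higher and 348 of those lower the difference was at least 2-fold, and in 72 and 19 it was at least 4-fold, so large differences lay more often on the higher side. In 837 of the higher and 1076 of the lower probe sets the 10 arrays of one strain did not overlap the 10 of the other. Among all 5716 probe sets, called or not, the arrays did not overlap in 910 on the higher side and 1198 on the lower side. The median difference over all probe sets was −0.09, and it was −0.05 after quantile normalization. The counts rest on few cultures: leaving out rad53-1 cdc8 cdc20 culture 1 gave 731 higher and 863 lower, leaving out its culture 2 gave 682 and 784, leaving out cdc20 culture 1 gave 726 and 963, and leaving out cdc20 culture 2 gave 759 and 845. In all 4 of these fits 612 of the higher and 658 of the lower calls were kept.

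The engineered genes were examined first. URA3, the selectable marker listed beside CFP-TUB1 in both strains, was at 8.32 and 8.54 in the rad53-1 cdc8 cdc20 cultures and at 12.59 and 12.55 in the cdc20 cultures, a 17.6-fold difference (log2 difference −4.14, SE 0.13, limma adjusted p = 6.4e-06). It was already lower by 3.28 at the start of the time courses (adjusted p = 0.0002), and the cdc8 cdc20 culture, which carries the same listed construct, was at 9.45. URA3 therefore separates the strains in a way that their listed genotypes do not, and what the integrated construct contributes to the signal was not tested. TUB1, which encodes alpha-tubulin and is the gene fused to CFP in that construct, was at 14.29 and 14.38 against 12.74 and 13.01 (2.76-fold higher, adjusted p = 0.00087). CDC20 transcript was near the dim end in all 4 cultures, at 9.20, 9.39, 8.73 and 8.82, and was 1.43-fold higher in rad53-1 cdc8 cdc20 (adjusted p = 0.015), a call that was lost in 3 of the 4 fits without 1 culture of these strains (adjusted p = 0.105 without rad53-1 cdc8 cdc20 culture 2, 0.0838 without cdc20 culture 1 and 0.0542 without cdc20 culture 2). CDC8 was at 10.65 and 10.42 against 10.49 and 10.43, and RAD53 at 8.41 and 8.40 against 8.37 and 8.32; neither allele is a deletion, so the level does not check it, and the differences of 0.07 (95% interval −0.21 to 0.35) and 0.06 (−0.25 to 0.37) were not called. BAR1, which encodes the protease that degrades alpha-factor and is disrupted in both strains, was at 6.54, 6.25, 7.04 and 7.44, while the cdc8 strain, which is wild type for it, was at 10.81. LEU2 was 1.49-fold lower and ADE2 1.40-fold higher. Neither call held without rad53-1 cdc8 cdc20 culture 2 (adjusted p = 0.131 and 0.0603); that of LEU2 was lost also without its culture 1 (0.147) or cdc20 culture 2 (0.191), and that of ADE2 without cdc20 culture 1 (0.0557).

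**Figure D1:**
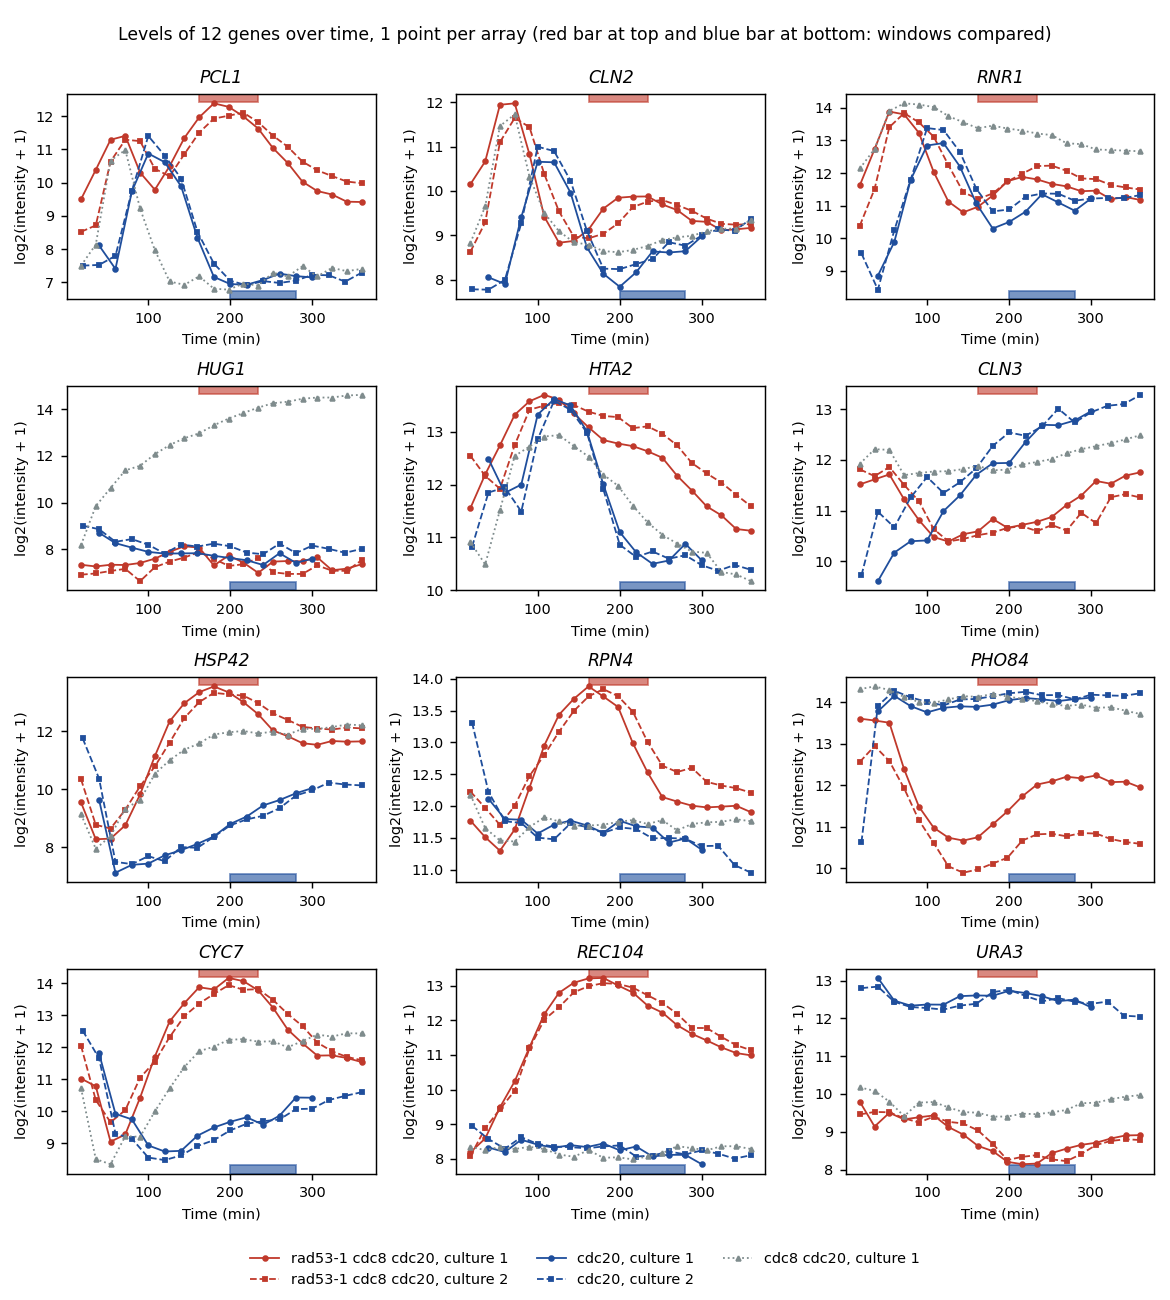
Levels of 12 genes as log2(intensity + 1) against time in minutes, 1 point per array, for both rad53-1 cdc8 cdc20 cultures (red), both cdc20 cultures (blue) and the cdc8 cdc20 culture (grey). Red and blue bars mark the windows compared; PCL1 stays at 2899 intensity units or more in the red window while it is at 152.9 or less in the blue one, and HUG1 climbs only in the grey culture.

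Genes of the checkpoint response did not move together. HUG1, a small inhibitor of ribonucleotide reductase and a sensitive marker of the Mec1-Rad53-Dun1 pathway, had median intensities of 171 and 191 in the rad53-1 cdc8 cdc20 cultures and 184 and 231 in the cdc20 cultures, with a log2 difference of −0.23 (95% interval −0.63 to 0.17, adjusted p = 0.29). In the cdc8 cdc20 culture its window ran from 7982 to 17120 units. RNR3, the damage-inducible large subunit of ribonucleotide reductase, was at 9.82 and 9.89 in rad53-1 cdc8 cdc20 and at 7.98 and 8.21 in cdc20, 3.39-fold higher (SE 0.26, adjusted p = 0.002), and at 11.72 in cdc8 cdc20. RNR3 thus stood above the cdc20 level and below that of the single culture with wild-type RAD53. RNR1, the constitutive large subunit, was at 11.54 and 11.70 against 10.92 and 11.21 (1.47-fold, adjusted p = 0.013), with 13.34 in cdc8 cdc20. RNR4, a small subunit, was 1.71-fold higher (adjusted p = 0.032). The RNR1 call was lost without rad53-1 cdc8 cdc20 culture 2 (adjusted p = 0.0895) or cdc20 culture 1 (0.0829), and that of RNR4 without any 1 of the 4 cultures (0.0964 to 0.132); with the last 5 time points RNR3 was higher by 0.81 on the log2 scale (adjusted p = 0.0664).

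Of the 13 measured genes of the ribonucleotide reductase and Dun1-Crt1 list, 7 (53.8%) were higher and 2 (15.4%) lower. Their median difference was 0.56, beside −0.09 over all probe sets. MAG1, a DNA glycosylase of base excision repair, was 2.13-fold higher (11.16 and 11.14 against 10.16 and 9.96), and RFX1, the repressor of the RNR genes, 1.97-fold higher. Of 15 checkpoint kinases and mediators, 4 were higher and 4 lower. These shares, 26.7% each, lie near the 19.6% and 26.6% of all probe sets, as do those of 44 DNA repair genes, of which 7 (15.9%) were higher and 14 (31.8%) lower. RAD17, a subunit of the checkpoint clamp, was 1.85-fold higher and RAD24, its loader, 1.70-fold higher. MRC1, the fork mediator that relays the signal to Rad53, was 1.58-fold higher, while TOF1, its partner at the fork, was 1.47-fold lower (9.04 and 8.95 against 9.51 and 9.60). MRC1 was not called without rad53-1 cdc8 cdc20 culture 1 (adjusted p = 0.0656) or cdc20 culture 2 (0.0605), nor TOF1 without rad53-1 cdc8 cdc20 culture 2 (0.0516).

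Of 24 SBF targets, 13 (54.2%) were higher and 3 (12.5%) lower (median 0.54), beside 19.6% and 26.6% of all probe sets. Of 32 MBF targets, 7 (21.9%) were higher and 7 (21.9%) lower (median −0.06), shares near those of all probe sets. In the fits without 1 culture of these strains, 10 or 11 SBF targets were higher and 1 at most lower, and 4 or 5 MBF targets were higher and 2 or 3 lower. With the last 5 time points of each culture the medians were both 0.10, with 8 SBF targets higher and 1 lower and 5 MBF targets higher and 1 lower; the difference between the lists was not tested. The gene with the largest difference of the whole array was PCL1, a G1 cyclin for the kinase Pho85. PCL1 was at 12.05 and 11.87 in rad53-1 cdc8 cdc20 and at 7.08 and 7.01 in cdc20, 30.1-fold higher (log2 difference 4.91, SE 0.12, adjusted p = 3.8e-06). Over the window its arrays ran from 3157 to 5338 and from 2899 to 4397 units in the first strain, and from 121 to 153 and from 120 to 132 in the second, so no arrays overlapped. PCL1 also passed through a first peak in all 4 cultures, at 72 min in both rad53-1 cdc8 cdc20 cultures (2713 and 2503 units) and at 100 min in both cdc20 cultures (1877 and 2705 units); it then stood in the window at 158.5% and 151.1% of that peak in the former and at 7.20% and 4.73% in the latter.

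Several other genes of budding and the cell surface were higher too, though the cell wall list as a whole was not. Of its 35 measured genes, 3 (8.57%) were higher and 8 (22.9%) lower (median −0.02), beside 19.6% and 26.6% of all probe sets. TOS6, a cell wall protein, was 7.73-fold higher (13.03 and 12.80 against 9.99 and 9.95), SVS1, also of the cell surface, 6.57-fold, and CSI2, a protein of the bud neck, 4.61-fold. PRY2, a secreted sterol-binding protein, was 10.3-fold higher and AXL2, the axial bud site landmark, 6.98-fold (11.79 and 11.78 against 8.87 and 9.11); PRY2 is in no list, and AXL2 is in that of septins and morphogenesis, of which 10 of 33 (30.3%) were higher and 11 (33.3%) lower. CLN2, the G1 cyclin that triggers budding, was at 9.66 and 9.32 against 8.38 and 8.53, 2.06-fold higher (SE 0.16, adjusted p = 0.002), and with the last 5 time points the difference was 0.43 (adjusted p = 0.105). CLN2 at the arrest was only 20.5% of its first peak in both rad53-1 cdc8 cdc20 cultures, beside 21.0% and 18.3% in cdc20, so that PCL1 and CLN2 behaved differently after a first peak that they shared. SWE1, the kinase that restrains mitotic Cdk1, was 2.27-fold higher and GIC2, a Cdc42 effector of bud emergence, 2.46-fold higher.

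Among MBF targets, MCD1, the kleisin subunit of cohesin, was 4.05-fold higher (11.10 and 10.82 against 9.10 and 8.79, adjusted p = 0.00027), and RFA2, a subunit of the single-stranded DNA binding complex RPA, 2.12-fold higher. MCD1 was at 10.89 in the cdc8 cdc20 culture, within the range of the rad53-1 cdc8 cdc20 cultures. CLB6, an S-phase cyclin, was lower, at 10.02 and 10.03 against 10.87 and 11.37 (2.13-fold, adjusted p = 0.01), and ELG1, which unloads the clamp PCNA from DNA, was 2.03-fold lower. The regulators of the program were divided as well. YOX1 and YHP1, the homeodomain repressors that work with Mcm1, were 4.59-fold and 3.18-fold higher, and MSA2 2.35-fold higher, while its paralogue MSA1, which also binds SBF and MBF, was 2.09-fold lower and WHI5, the repressor of SBF, 1.75-fold lower. NRM1, the corepressor of MBF, was at 9.52 and 9.36 against 9.02 and 9.22 and was not called (adjusted p = 0.084); it was at 10.63 in cdc8 cdc20. With the last 5 time points RFA2 (0.29, adjusted p = 0.296), YHP1 (0.31, 0.247) and ELG1 (−0.38, 0.0946) were not called. The calls of CLB6 and WHI5 were lost without rad53-1 cdc8 cdc20 culture 1 (adjusted p = 0.0561 and 0.0642), without its culture 2 (0.0571 and 0.159) or without cdc20 culture 2 (0.0692 and 0.163).

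All 9 measured histone genes were higher, with a median difference of 1.60; 8 were higher in each fit that left out 1 culture of these strains, and 7 with the last 5 time points, where the median was 0.99. Above the cdc20 mean the list stood at 1.04 in cdc8 cdc20 and above that, at up to 1.501, in the 2 cse4 cultures, which are also arrested in mitosis. Histone transcription is tied to S phase, and transcripts are removed once replication ends. HTA2 was at 12.81 and 13.22 in rad53-1 cdc8 cdc20 and at 10.75 and 10.70 in cdc20, 4.91-fold higher (SE 0.22, adjusted p = 0.00041); a second HTA2 probe set gave 1.48 on the log2 scale. HTB2 was 4.09-fold, HHT1 3.28-fold and HTB1 3.23-fold higher. The H2A, H2B and H3 gene pairs are close in sequence, so signal can be shared within a pair. HTA2 reached 13280 and 11942 units before the window in rad53-1 cdc8 cdc20 and 12570 and 12277 units in cdc20, and in the window it still had 54.4% and 80.4% of that peak in the former, against 13.9% and 13.5% in the latter. In cdc8 cdc20 the peak was lower, at 7832 units, and the window mean was 4038 units.

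Genes of the next G1 were lower. CLN3, the upstream G1 cyclin, was at 10.71 and 10.60 against 12.49 and 12.69, 3.80-fold lower (SE 0.15, adjusted p = 0.00026). CLN3 reached 7972 and 9964.5 units at the end of the cdc20 time courses, and 3453 and 3712 units at most in the rad53-1 cdc8 cdc20 cultures. Of the 9 genes of the MCM cluster, 5 (55.6%) were lower and none higher (median −0.88), beside 26.6% lower and 19.6% higher of all probe sets. In the fits that left out 1 culture of the 2 strains the cluster median ran from −0.99 to −0.69. The median was −0.38 with the last 5 time points, where MCM2 was not called (−0.37, adjusted p = 0.0611), and −0.47 with cdc20 read from 160 to 240 min. MCM3 was 2.95-fold, MCM7 2.46-fold and MCM2 1.96-fold lower, all subunits of the replicative helicase. FAR1, the Cdk inhibitor of the pheromone response, was 3.57-fold lower (9.16 and 9.35 against 11.14 and 11.04). In cdc8 cdc20 MCM3 was at 10.10 and FAR1 at 9.48, between the 2 strains, and CLN3, at 11.87, was nearer to cdc20. Relative to the cdc20 mean, the MCM cluster median was −0.99 and −0.69 in the rad53-1 cdc8 cdc20 cultures and −0.47 in cdc8 cdc20. It was −0.93 and −1.02 in the cdc8 cultures and −0.90 and −0.96 in the cse4 cultures, so low MCM levels were not particular to rad53-1 cdc8 cdc20.

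In the G2/M program, 22 SFF targets, genes of the forkhead and Mcm1 complex, were measured. Of these, 2 (9.09%) were higher and 10 (45.5%) lower (median −0.45), beside 19.6% and 26.6% of all probe sets. Relative to the cdc20 mean, the SFF median was −0.46 in each rad53-1 cdc8 cdc20 culture and −0.69 in cdc8 cdc20. It was −0.83 and −0.68 in the cdc8 cultures and −0.25 and −0.04 in the cse4 cultures. Of 15 mitotic exit genes none was higher and 4 (26.7%) were lower, close to the 26.6% of all probe sets. CLB2, the main mitotic cyclin, was at 9.80 and 9.74 against 10.38 and 10.11 (log2 difference −0.47, 95% interval −0.98 to 0.03, adjusted p = 0.11), and SWI5, an M/G1 activator, gave −0.53 (adjusted p = 0.092). CDC5, the polo kinase, was 1.43-fold lower (adjusted p = 0.0087). KIN3, a kinase of the NIMA family, was 1.88-fold lower and SPO12, of the mitotic exit network, 1.95-fold lower, while KIP2, a kinesin of cytoplasmic microtubules, was 2.51-fold higher. Among the factors of this program NDD1, the coactivator of Fkh2, was 2.15-fold higher and FKH1 1.75-fold higher, and HCM1, an S-phase forkhead factor, gave 0.55 and was not called (adjusted p = 0.13). SIC1, the Clb-Cdk1 inhibitor made at mitotic exit, was at 8.45 and 8.57 against 8.39 and 8.38 (adjusted p = 0.38), and ASH1, a daughter-specific repressor, was 1.91-fold lower. Without rad53-1 cdc8 cdc20 culture 2, 4 SFF targets were lower, without cdc20 culture 1 5 and without cdc20 culture 2 6, and CDC5 was not called in the first or second of these fits (adjusted p = 0.0602 and 0.0636). With the last 5 time points of each culture in place of the windows, 3 SFF targets were higher and 1 lower, and CDC5 (−0.038, adjusted p = 0.878), KIN3 (−0.32, 0.179), NDD1 (0.40, 0.138) and FKH1 (0.47, 0.0718) were not called. Of the 856 genes that the study's supplement marks as periodic in wild type by both of its methods, a list not independent of the study, 183 (21.4%) were higher and 288 (33.6%) lower, beside 19.6% and 26.6% of all probe sets.

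**Figure D2:**
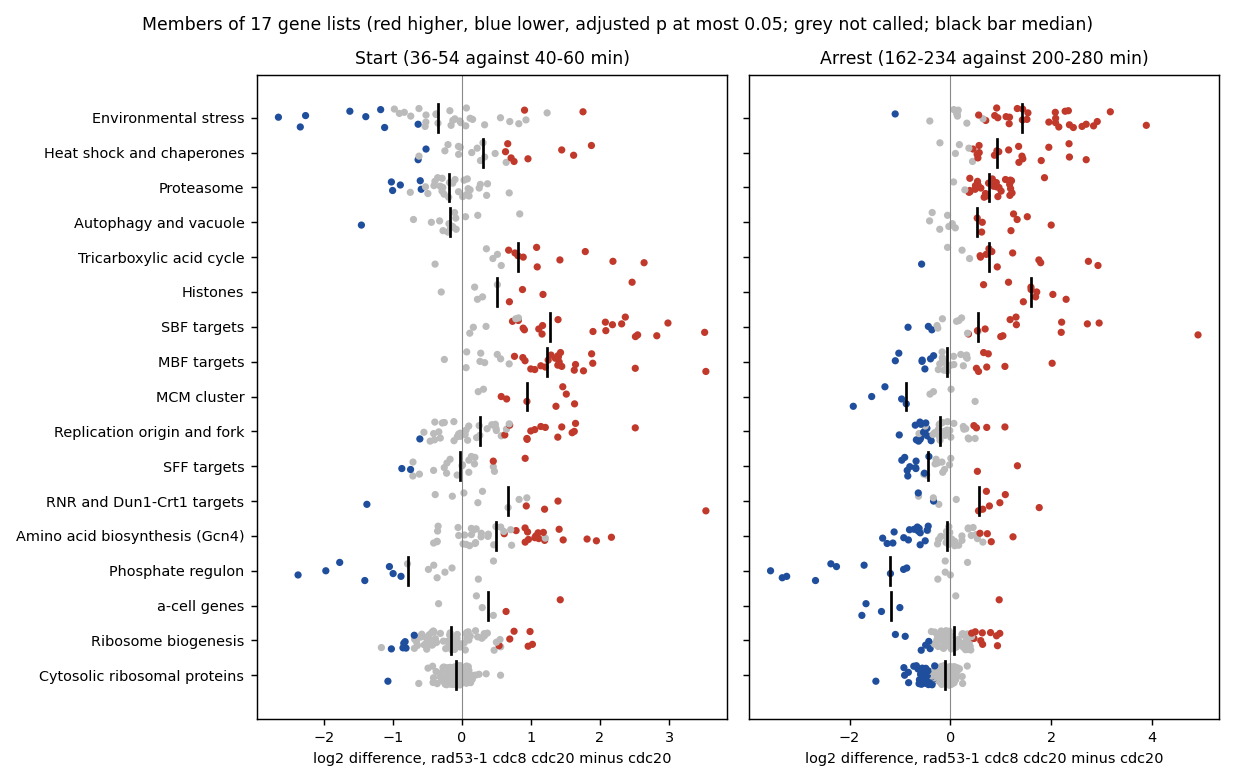
Log2 difference between the strains for each member of 17 gene lists, at the start of the time courses (left) and in the arrest windows (right); coloured points passed the limma threshold and black bars are medians. In the arrest panel all histone and proteasome genes and 35 of 37 stress genes lie to the right of 0, and 7 of 9 MCM and 14 of 15 phosphate genes to the left; in the start panel the medians of SBF and MBF targets are 1.28 and 1.23.

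Most genes of the environmental stress response were higher, a set induced by Msn2 and Msn4 in many stresses. Of 37 members, 28 were higher and 1 lower, with a median difference of 1.43. HSP42, a small heat shock protein, was at 13.16 and 13.15 against 9.36 and 9.18, 14.8-fold higher (SE 0.34, adjusted p = 0.0003). GSY1, glycogen synthase, was 7.53-fold, HSP26 7.16-fold and XBP1, a stress-induced repressor of cyclin genes, 9.01-fold higher. TMA10, a protein found with ribosomes and outside the list, was 14.2-fold higher (12.19 and 11.98 against 8.36 and 8.16). HSP42 was highest at 180 min in both rad53-1 cdc8 cdc20 cultures (11909 and 10216 units) and then declined, whereas in both cdc20 cultures it climbed within the window by 0.80 and 0.73 log2 units per hour. The list as a whole stood higher in the other strains with the cdc8 allele: the median of the list above the cdc20 mean was 1.27 and 1.53 in the rad53-1 cdc8 cdc20 cultures, 2.31 in cdc8 cdc20 and 2.52 and 2.59 in the cdc8 cultures, which were read in windows of their own. HSP42 itself was at 11.87 in cdc8 cdc20, below both rad53-1 cdc8 cdc20 cultures. With the last 5 time points 26 of the 37 were higher, with a median of 1.13.

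Chaperone and proteasome genes were higher too. Of 23 heat shock and chaperone genes, 18 were higher and none lower (median 0.92); SSA4, the inducible Hsp70, was 6.47-fold higher, HSP104, a disaggregase, 5.13-fold, and BTN2, which sequesters misfolded protein, 5.11-fold. Without rad53-1 cdc8 cdc20 culture 1, 12 were higher, without its culture 2 10, and without either cdc20 culture 11; with the last 5 time points 8 were. Of 33 proteasome genes, 31 were higher and none lower (median 0.76), and every member had a positive difference. RPN4, the transcription factor of these genes and the member with the largest difference, was at 13.33 and 13.55 against 11.60 and 11.55, 3.64-fold higher (SE 0.13, adjusted p = 0.00018). PRE8, a core particle subunit, was 2.33-fold, RPT2, an ATPase of the base, 2.32-fold, and RPN1, a scaffold of the base, 2.29-fold higher. RPN4 reached 15067 units at 162 min and 14625 units at 180 min in the 2 rad53-1 cdc8 cdc20 cultures, and the proteasome genes had a median time of the highest array of 198 and 216 min. The median of the list above the cdc20 mean was 0.82 and 0.81 in these cultures, 0.47 in cdc8 cdc20 and 0.12 and 0.16 in cdc8, the reverse of the order for the stress genes. ATG8, the ubiquitin-like protein of autophagosomes, was at 12.03 and 12.14 against a cdc20 mean of 10.08 (limma adjusted p = 0.00028). Of 15 autophagy and vacuole genes, 8 (53.3%) were higher and none lower, beside 19.6% and 26.6% of all probe sets.

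**Figure D3:**
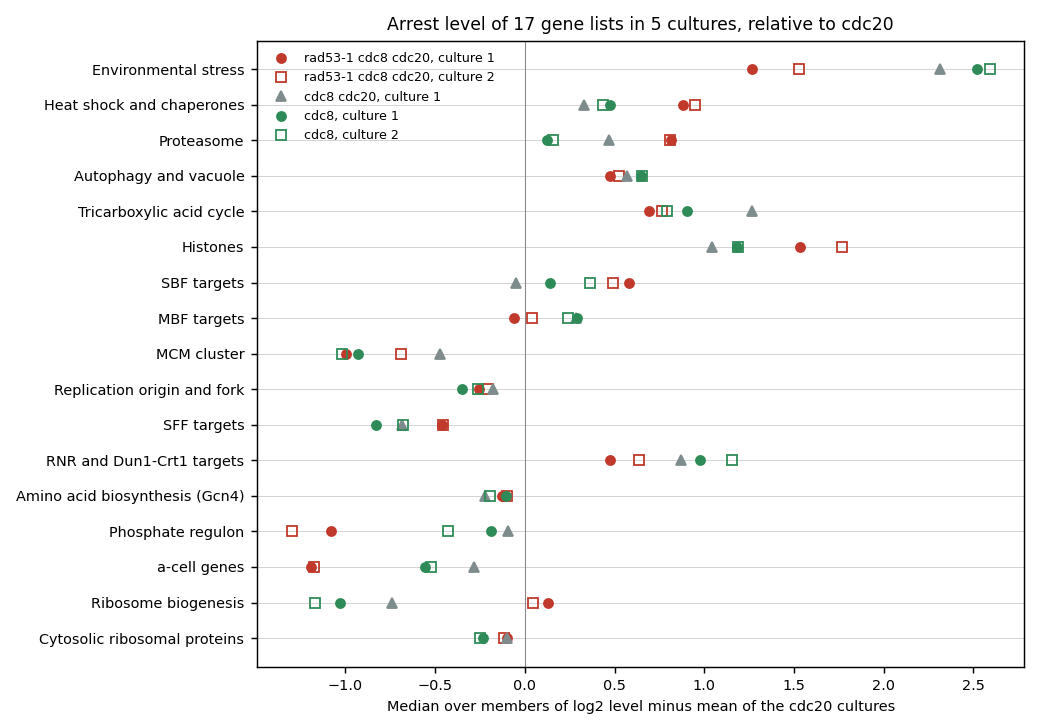
Median over the members of each of 17 gene lists of the log2 level minus the mean of the cdc20 cultures, for single cultures of rad53-1 cdc8 cdc20, cdc8 cdc20 and cdc8. For stress genes the 2 rad53-1 cdc8 cdc20 cultures, at 1.27 and 1.53, lie below the cdc8 cdc20 culture at 2.31, and for proteasome genes, at 0.82 and 0.81, above it at 0.47.

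Genes of carbon use were displaced as well. CYC7, the isoform of cytochrome c made when oxygen or glucose is scarce, was at 13.94 and 13.72 against 9.87 and 9.70, 16.6-fold higher (SE 0.13, adjusted p = 6.4e-06). Of 15 tricarboxylic acid cycle genes, 11 (73.3%) were higher and 1 (6.67%) lower (median 0.76), beside 19.6% and 26.6% of all probe sets. CIT2, peroxisomal citrate synthase and a target of the retrograde pathway, was 7.61-fold higher, IDH1, a subunit of isocitrate dehydrogenase, 6.67-fold, and ACO1, aconitase, 3.46-fold. The median of the list above the cdc20 mean was 0.69 and 0.76 in the rad53-1 cdc8 cdc20 cultures and 1.27 in cdc8 cdc20. It was 0.90 and 0.79 in the cdc8 cultures and 1.79 and 1.29 in the cse4 cultures, which were released into galactose medium. ACO1 was at 14.24 in cdc8 cdc20 and at 14.34 in each cdc8 culture. At the start 10 of the 15 were higher. Without rad53-1 cdc8 cdc20 culture 1 or cdc20 culture 1, 6 were higher at the arrest, without rad53-1 cdc8 cdc20 culture 2 7, and without cdc20 culture 2 8. ACS1, acetyl-CoA synthetase, was 4.74-fold higher and CYB2, lactate dehydrogenase, 5.74-fold, among 10 of 22 glucose-repressed genes (45.5%) that were higher with none lower. Of 19 hexose transporters and sensors, 9 (47.4%) were higher and 5 (26.3%) lower, beside 19.6% and 26.6% of all probe sets. HXT1, the low-affinity transporter made in high glucose, was 4.87-fold lower (11.49 and 11.39 against 13.71 and 13.74), and HXT2, of high affinity, 6.35-fold higher. The probe set of HXT7, which is shared with near-identical copies and so is uncertain, was higher by 3.47 on the log2 scale. GAL2 and GAL10, the galactose permease and epimerase, were 2.27-fold and 1.60-fold higher at levels of 9.63, 9.81, 8.33 and 8.73 for GAL2; with the last 5 time points the GAL2 difference was −0.70 (adjusted p = 0.0249) and that of ACS1 −0.37 (adjusted p = 0.188).

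The phosphate regulon was lower in rad53-1 cdc8 cdc20. Of 15 members, 10 (66.7%) were lower and none higher (median −1.19), beside 26.6% lower and 19.6% higher of all probe sets. In the fits that left out 1 culture of the 2 strains the median of the list ran from −1.30 to −1.08. PHO84, the high-affinity phosphate transporter, was at 11.38 and 10.36 against 14.07 and 14.18, 9.51-fold lower (SE 0.29, adjusted p = 0.0003). SPL2, an inhibitor of low-affinity phosphate uptake, was 11.9-fold lower (7.73 and 7.16 against 10.82 and 11.20), PHO5, a secreted acid phosphatase, 6.40-fold, VTC3, of the polyphosphate polymerase, 4.79-fold, and PHM6 5.18-fold. The probe set of PHO11 is shared with its near-identical copy PHO12 and was 10.1-fold lower. In cdc8 cdc20 PHO84 was at 14.12 and SPL2 at 10.38, close to cdc20, and the median of the list above the cdc20 mean was −0.09, against −1.08 and −1.30 in rad53-1 cdc8 cdc20. ZRT1, the high-affinity zinc transporter, was in contrast 5.83-fold higher.

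The markers of the MATa cell were lower but present. Of 6 a-cell genes, 4 were lower and 1 higher: MFA1 and MFA2, which encode a-factor, were 3.38-fold and 2.58-fold lower, STE6, its exporter, 3.19-fold, and STE2, the alpha-factor receptor, was at 12.64 and 12.66 against 13.64 and 13.68. Their summed intensity was 22650 and 24420 units against 53690 and 52460, while that of 4 alpha-cell genes was 1859 and 1783 against 2186 and 2704, and 2 of these 4 were called lower. With the last 5 time points MFA1 differed by −0.15 (adjusted p = 0.651). In bulk samples fewer cells of a kind and less RNA per cell cannot be told apart. KAR4, a mating and meiotic regulator, was 3.20-fold higher. A few meiotic genes were far higher. REC104, needed for meiotic double-strand breaks, was at 12.93 and 12.96 against 8.18 and 8.18, 27.2-fold higher (SE 0.14, adjusted p = 5.7e-06), and RIM4, a meiotic RNA-binding protein, 13.0-fold higher. IME1, the master regulator of meiosis, was 2.38-fold and IME2 2.46-fold higher. Of 28 meiotic genes 8 (28.6%) were higher and 4 (14.3%) lower, beside 19.6% and 26.6% of all probe sets. REC104 was at 8.08 in cdc8 cdc20 and 7.54 in cdc8 culture 1, and RIM4 at 10.75 in cdc8 cdc20.

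**Figure D4:**
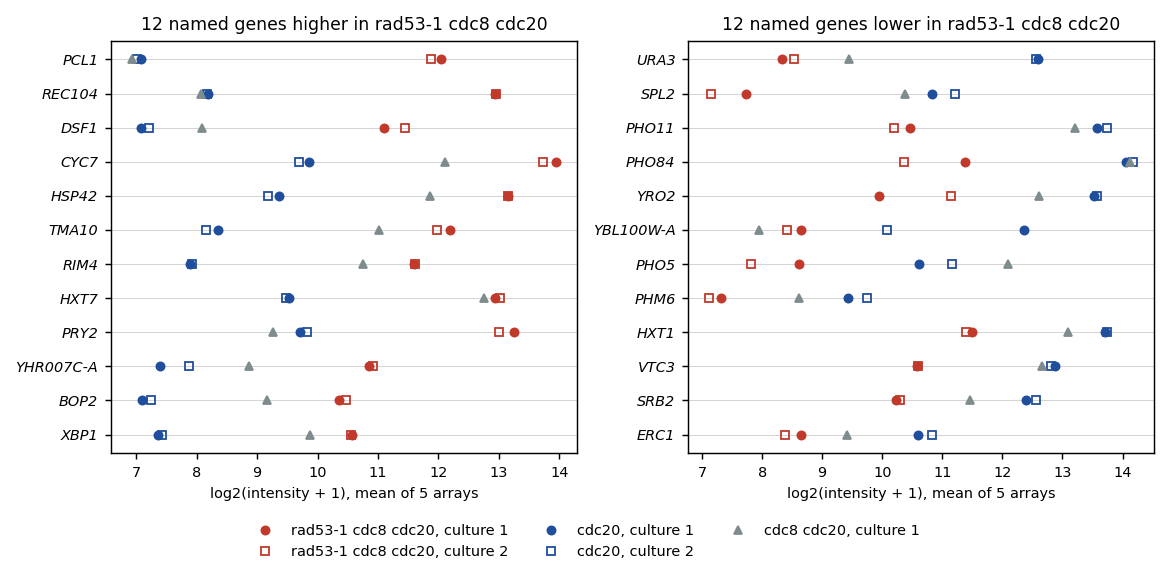
Arrest level as log2(intensity + 1), mean of 5 arrays, of the 12 named genes with the largest difference in each direction, for each culture of rad53-1 cdc8 cdc20 (red) and cdc20 (blue) and for the cdc8 cdc20 culture (grey). The red and blue points do not overlap for any gene, and the grey point is near the blue ones for PCL1 and REC104 and near the red ones for HXT7.

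The remaining genes with the largest differences belong to no list. DSF1, a mannitol dehydrogenase homologue whose probe set is shared, was 17.5-fold higher (with the last 5 time points 1.27 on the log2 scale, adjusted p = 0.0614), BOP2 9.40-fold and YHR007C-A 9.57-fold. YRO2, a membrane protein of the plasma membrane and mitochondria, was at 9.95 and 11.14 against 13.53 and 13.57, 8.03-fold lower; ERC1, a transporter, was 4.59-fold and SRB2, of the Mediator head, 4.64-fold lower. YBL100W-A, a Ty element gene with a shared probe set, was 6.45-fold lower, but the cdc20 cultures were at 12.36 and 10.08, and the call was lost without rad53-1 cdc8 cdc20 culture 1 (adjusted p = 0.0659) or culture 2 (0.0867). Growth genes differed little. Of 122 cytosolic ribosomal protein genes none was higher and 32 (26.2%) were lower (median −0.12), beside 19.6% and 26.6% of all probe sets. RPL22B was 2.79-fold lower, and with the last 5 time points its difference was −0.52 on the log2 scale (limma adjusted p = 0.143). Of 74 ribosome biogenesis genes 10 (13.5%) were higher and 6 (8.11%) lower (ENP2 1.97-fold higher). The median of the latter list above the cdc20 mean was 0.13 and 0.04 in the rad53-1 cdc8 cdc20 cultures and −0.74 in cdc8 cdc20.

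Differences at the start of the time courses, and in the change from start to arrest, were tested as well. At the start, from 36 and 54 min in rad53-1 cdc8 cdc20 and from 40 and 60 min in cdc20, 739 probe sets (12.9%) were higher and 920 (16.1%) lower; leaving out rad53-1 cdc8 cdc20 culture 1 left 36 and 13, leaving out its culture 2 left 93 and 36, leaving out cdc20 culture 1 left 76 and 110, leaving out cdc20 culture 2 left 337 and 280, and leaving out a culture of the cdc8 or cse4 strains gave 424 to 1308 and 480 to 1568. At this time 23 of 32 MBF and 19 of 24 SBF targets were higher and none was lower. The G1/S wave came earlier in rad53-1 cdc8 cdc20: CLN2 peaked at 72 min in both and at 100 min in both cdc20 cultures. RNR1 was higher by 3.53 at the start and by 0.56 at the arrest.

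For the shift from start to arrest, taken within each culture, 1457 probe sets (25.5%) were higher in rad53-1 cdc8 cdc20 and 1703 (29.8%) lower. Of the stress list 29 members were higher and 2 lower in this test, with a median of 1.95, beside a median of −0.35 at the start. Proteasome genes gave 30 higher and none lower. MBF targets, with a median start difference of 1.23, gave none higher and 25 lower (median −1.03), and the MCM cluster none higher and 8 lower (median −1.92). The start windows lie at different distances from the G1/S wave in the 2 strains, and the part of this timing in the shift was not tested. For the stress, proteasome, histone and phosphate genes the shift was in the direction of the arrest difference, and of 24 SBF targets 17 were lower in the shift, 1 higher and 6 not called. Phosphate genes were lower at the start already, 7 of 15 and none higher (median −0.79), with PHO84 at −0.88 and SPL2 at −1.97. The start call of PHO84 was lost in every fit that left out 1 culture of these strains. In those fits PHO84 ranged from −1.27 to −0.50. The SPL2 call was lost without rad53-1 cdc8 cdc20 culture 1, at −2.15, and without its culture 2, at −1.80. The SBF target higher in the shift was PCL1, by 2.37 (adjusted p = 0.0011), whereas TOS6 gave −0.03 (adjusted p = 0.97).

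Differences were also read along the chromosomes, with gene positions from the RefSeq annotation and 5498 placed probe sets. Relative to the median of all probe sets, 30 of the 32 chromosome arms had a median arrest difference between −0.13 and 0.14, and the other 2 were the left arm of chromosome III, at 0.53 over 59 genes, and the right arm of chromosome X, at 0.43 over 131 genes. On the right arm of X the displacement lay outwards of ANB1, at 0.56 over 98 genes, and was 0.03 over the 33 genes inside it (0.24 at the start). These boundaries were chosen after the values were seen. On the left arm of III 43 of 59 genes, and on the outer right arm of X 80 of 98, were above the median of all, and 28 (47.5%) and 51 (52.0%) were called higher, beside 19.6% of all probe sets. The displacement was present at the start, at 0.59 and 0.55, and in each rad53-1 cdc8 cdc20 culture, at 0.60 and 0.46 on III and 0.59 and 0.51 on X at the arrest, while the cdc8 cdc20 culture was at 0.10 and 0.05. CDC8 itself lies on the right arm of X. DNA copy number was not measured. Of the genes named above, MRC1, KAR4 and LEU2 lie on the left arm of III. IME1 and CDC8 lie on the outer right arm of X. The higher levels of MRC1, KAR4 and IME1 thus lie within these stretches. Of the lists counted above, 4 septin and morphogenesis genes, 2 SFF targets and 2 ribosome biogenesis genes lie there. The MBF target, stress, checkpoint, DNA repair, mitotic exit, glucose-repressed, meiotic and cytosolic ribosomal protein lists have 1 member each there. No histone, proteasome, chaperone, SBF, phosphate or tricarboxylic acid cycle gene lies there. Without all genes of the stretches 1043 probe sets were higher and 1507 lower.

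**Figure D5:**
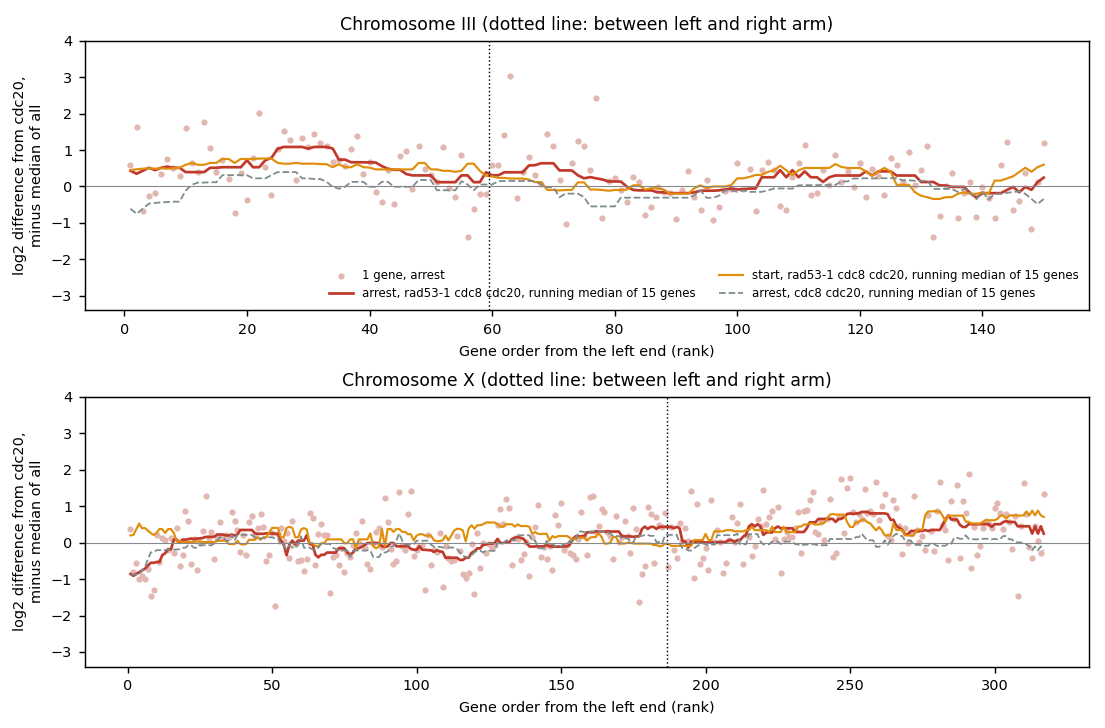
Log2 difference from the cdc20 cultures minus the median of all probe sets, for genes in their order along chromosomes III and X (rank from the left end); pale points are single genes and lines are running medians of 15 genes. In rad53-1 cdc8 cdc20 the lines lie above 0 over the left arm of III and the outer right arm of X over most of their length at both start and arrest; the medians over these stretches at the arrest are 0.53 and 0.56, against 0.10 and 0.05 for cdc8 cdc20.

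Within the windows the levels still moved. The median range of a probe set over the 5 arrays of a culture was 0.41 and 0.35 log2 units in the rad53-1 cdc8 cdc20 cultures and 0.40 and 0.28 in the cdc20 cultures, beside a median absolute difference between the strains of 0.41. Replicate cultures differed by a median of 0.11 and 0.12. RPN4 fell by 1.15 and by 0.60 log2 units per hour in the rad53-1 cdc8 cdc20 window, and CLN2 climbed by 0.59 and 0.75, so that the window mean of such genes depends on its limits; with windows matched by clock time, 198 to 270 min against 200 to 280 min, 1065 probe sets were higher and 1381 lower.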

How the data were processed

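RNA of 160 time points was hybridised to Affymetrix yeast arrays. The authors deposited linear intensities, made with affy 1.32.1 by invariant-set normalization, without background correction, from perfect-match probes summarised by the Li-Wong model, with S. pombe probes masked. From the 5900 probe sets, 184 controls were left out; 5498 of 5716 had 1 gene symbol, 12 of them updated through RefSeq. Here log2(intensity + 1) was averaged over the windows of each culture. These means were fitted with limma 3.58.1 (R 4.3.3) over all 9 cultures (4 residual degrees of freedom), which share 1 estimate of the spread. The cse4 cultures, released into galactose medium, are among these 9. The study's text describes the cultures of a strain as separate experiments. The script was tested on simulated data.

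The comparison and the gene lists were chosen with earlier results of these data known. Named genes were the strain markers, up to 4 called members of each list with the largest difference, and the 12 largest differences in each direction. ANB1 was chosen after its value was seen. Lists are described by counts and medians only. Probe sets ending in _s_at can be shared by similar genes. Alternatives were other windows, normalization, pseudocounts, filters, sample sets, a replicate block and leaving out each culture. Promoter sequences were not used here.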

Additional observations from a re-analysis of the deposited data

Results flagged for a closer look

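Several differences turned direction between the start and the arrest, with the start, the arrest and the shift each past the limma threshold. There were 130 probe sets lower at the start and higher at the arrest in rad53-1 cdc8 cdc20, and 140 higher at the start and lower at the arrest. Only 3 of each kept all 3 calls in every fit that left out 1 culture of these strains, none of them a gene named above; over all probe sets 30 higher and 13 lower start calls held in those fits. With a later start window the start differences of MCM3 (0.13, limma adjusted p = 0.628), MCM7 (0.42, 0.248), MSA1 (0.46, 0.327), ATG8 (−0.62, 0.0788) and CYC7 (−0.024, 0.956) were not called. Of the genes named above, the second kind comprised LEU2, whose shift was −1.62, TOF1 at −1.81, CLB6 at −2.01, MSA1 at −2.25, CLN3 at −3.29, MCM2 at −1.62, MCM3 at −2.13, MCM7 at −2.76 and MFA2 at −2.01 (log2 differences of the change within a culture). The first kind comprised ADE2 at 1.41, SSA4 at 3.33, RPT2 at 1.82, ATG8 at 3.46, CYC7 at 4.77, GAL2 at 2.22 and GAL10 at 1.98. CLN2 and PCL1 peaked at 72 min in rad53-1 cdc8 cdc20 and at 100 min in cdc20, so the start windows lie at different distances from that peak, and the part of this timing in the turned directions was not tested.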

How the results depend on the processing

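The counts at the arrest were 1122 higher and 1519 lower; with the last 5 time points 853 were lower. Over all fits that left out 1 culture they ranged from 682 to 1537 higher and from 784 to 2089 lower, and at the start from 36 to 1308 higher and from 13 to 1568 lower; counts of the shift stayed within 1.5 times. With only the 2 strains in the fit 1146 probe sets were higher at the start. The labels share replicate numbers, but same-numbered cultures deviated with a correlation of −0.16 at the arrest; the replicate block gave 1339 higher and 1805 lower at the arrest and 1147 higher at the start, and the crossed pairing, added after seeing the data, gave 1452 and 2026. Among 106 genes, 806 of 848 arrest values kept direction and call when a culture was left out, as did 1105 of 1155 under other settings. With the last 5 time points the direction changed for RAD53 (−0.25), NRM1 (−0.11), SWI5 (0.15), HCM1 (−0.21), SPO12 (0.34), ACS1 (−0.37) and GAL2 (−0.70); with clock-matched windows for RAD53 (−0.037); and without rad53-1 cdc8 cdc20 culture 1 for CDC8, which ranged from −0.045 to 0.19 when a culture was left out. Start differences turned with a later start window for HSP42 (1.39), SSA4 (0.18), RPT2 (0.049) and FAR1 (−0.88), with quantile normalization for HSP26 (−0.074), and on leaving out a culture, where HSP42 ranged from −0.43 to 0.12 and HSP26 from −0.47 to 0.58. Shifts turned for TOS6 (0.10) and TUB1 (−0.41) with the later start window, and on leaving out a culture, where TOS6 ranged from −0.45 to 0.39 and MCD1 from −0.28 to 0.53. The cause was not tested. The block changed the call of CLB2, SWI5, HCM1 and BAR1, which were called under it. Number of arrays and signal over background limit the dim genes.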
